A study of Mus musculus with 12 samples.

Results

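In P19 cells, 990 genomic regions were listed as bound by MyoD and by at least 1 of the mutants WC and WCS, while the unmutated chimera and NeuroD2 were listed at none of them. They were chosen by the deposited site lists themselves. The intervals of 5 lists were pooled, intervals that shared at least 1 base were merged, and a merged region was kept where it held a MyoD interval and an interval of either mutant, and none of the chimera or NeuroD2. The 990 regions are 1.65% of all 60136 merged regions and 4.00% of the 24725 regions with a MyoD interval. Presence in the lists chose them, so every count and value below is a description and carries no test.

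P19 is a mouse embryonal carcinoma line, and chromatin immunoprecipitation with sequencing (ChIP-seq) mapped the binding of proteins transduced into it. The groups used here are cells transduced with MD(ND2bHLH)WC, called WC, with MD(ND2bHLH)WCS, called WCS, with MD(ND2bHLH), called the chimera, with NeuroD2, and with MyoD. The chimera is MyoD whose bHLH domain was replaced by that of NeuroD2, and WC and WCS are mutants of that chimera whose letters the labels leave unexplained. Cells of all these groups were infected in medium with polybrene and moved to a neuronal medium, and no promoter for the transduced proteins was stated in the labels. Each group has 2 libraries made with different antibodies but 1 list, so no replicate spread exists for any value. MyoD antibodies 6196 and 6975 served for WC, WCS, the chimera and MyoD, and NeuroD2 antibodies 1165 and 1240 for NeuroD2. The 2 libraries of untransduced cells were not analysed here as a list, so no background is set beside the values.

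MyoD drives skeletal muscle differentiation and NeuroD2 neuronal differentiation. Both are basic helix-loop-helix (bHLH) factors that pair with E proteins and contact the E-box, CANNTG, in which the central bases differ in how well each factor is bound. MyoD also cooperates on DNA with the homeodomain proteins Pbx and Meis through residues that lie outside its bHLH domain, so a protein that keeps the body of MyoD and carries another bHLH domain separates both kinds of contact. The regions described here are those where a MyoD site was absent from the lists of the chimera and NeuroD2, and yet appeared with a mutant of the chimera. Where in the protein these mutations lie is not stated in the labels.

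The site lists hold 27045 sites for WC, 22462 for WCS, 14375 for the chimera, 31458 for NeuroD2 and 24935 for MyoD, in mm9 coordinates. Each site carries a value deposited by the authors. No header names its unit; its range fits a −log10 p-value, and none is below 5.002. It is used as a rank within its own list, given as the percentile of the list's sites. Read depth is unknown, and the chimera's list is the shortest, so absence from it is absence of a listed site and not a measured lack of binding. The chimera and MyoD lists hold 0 sites on chromosome X, whereas the other 3 lists hold 362 to 570, so all 990 regions lie on autosomes by construction. The shortest sites have 54 bp in the mutant lists, 200 bp in the chimera list and 53 bp in the NeuroD2 list.

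Mutant binding was rare at MyoD regions that the chimera and NeuroD2 lacked. Of the 14361 MyoD regions without both, the 990 members make up 6.89% (95% Clopper-Pearson interval 6.48 to 7.32%, counting error only). A mutant was listed at 34.1% of the 4009 MyoD regions that the chimera held and NeuroD2 lacked (32.6 to 35.6%). At the 2169 MyoD regions held by NeuroD2 and not by the chimera the share was 72.6% (70.7 to 74.5%). At the 4186 held by the chimera and NeuroD2 it was 94.0% (93.2 to 94.7%). The order of these 4 shares uses the same lists that define the members and is given as background to the count. The NeuroD2, WC and WCS lists share the presence of chromosome X and of short sites, and whether that set of lists bears on the order was not tested.

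**Figure D1:**
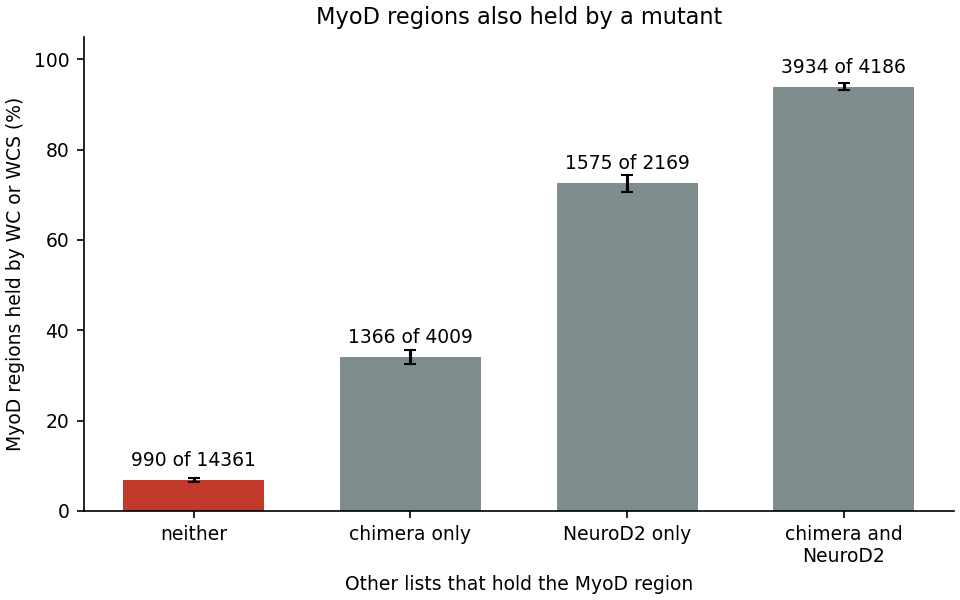
Bars give the percentage of MyoD regions listed for WC or WCS, by which other lists hold the region, with 95% Clopper-Pearson intervals and the counts above each bar. The red bar is the 990 members, at 6.89% of 14361 regions, and the bar for regions held by the chimera and NeuroD2 stands at 94.0%.

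The members divide into 324 held by both mutants, 402 held by WC alone and 264 held by WCS alone, which is 32.7%, 40.6% and 26.7% of them. WC was thus listed at 726 members and WCS at 588. Of the WC members 44.6% were also WCS regions, and of the WCS members 55.1% were also WC regions. At regions outside the MyoD, chimera and NeuroD2 lists, 36.2% of 5946 WC regions held WCS and 54.0% of 3980 WCS regions held WC. The first share lay below that of the members, and the second was close to it. Both mutants coincided far more where NeuroD2 was present. At the 1575 regions of MyoD, a mutant and NeuroD2 without the chimera, 81.0% of WC regions held WCS and 87.7% of WCS regions held WC. At the 1366 regions of MyoD, a mutant and the chimera without NeuroD2 these shares were 43.6% and 71.3%. Seen from the mutants' side, MyoD was listed at 11.3% of the 8765 mutant regions that lacked the chimera and NeuroD2, and at 57.5% of the 2377 mutant regions with the chimera and without NeuroD2. Of mutant regions with NeuroD2 and without the chimera, 1575 held MyoD and 11144 did not. With the chimera and NeuroD2, 3934 held MyoD and 2897 did not. Chromosome X, where the MyoD list holds 0 sites, was not left out of these mutant regions.

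Mutant sites within the members had low values in their own lists. The median WC value was 6.97 over 726 members, at percentile 24.5 of the WC list, and the median WCS value was 6.74 over 588 members, at percentile 25.1 of the WCS list. In regions that also held NeuroD2 and lacked the chimera the medians were 10.9 for WC and 10.6 for WCS, at percentiles 51.3 and 52.9. In regions that also held the chimera and lacked NeuroD2 they were 9.41 for WC and 7.72 for WCS, at percentiles 43.5 and 34.8. Single-mutant regions outside all of the MyoD, chimera and NeuroD2 lists had medians close to those of the single-mutant members: regions of WC alone had a median WC value of 6.68 and regions of WCS alone a median WCS value of 6.04, against 6.84 for members held by WC alone and 6.07 for members held by WCS alone. As percentiles these medians were 22.7 at members and 21.8 outside the MyoD list for WC, and 17.0 and 15.8 for WCS. Regions of both mutants outside those lists had a median WC value of 8.05, at percentile 34.4, above the 7.24, at percentile 27.2, of members held by both. Their median WCS values were alike, at 7.69 for these members and 7.72 outside the lists.

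Members held by both mutants ranked higher in the mutant lists than members held by a single mutant. Their median percentiles were 27.2 in the WC list and 34.5 in the WCS list, beside 22.7 for members held by WC alone and 17.0 for members held by WCS alone. Members held by WCS alone reached a WCS value of at most 14.6. Many mutant values lay close to the lowest that the lists admit. Values under 6 made up 27.3% of the WC values and 29.1% of the WCS values at members, beside 13.3% and 14.9% over the whole WC and WCS lists. A WC and a WCS value under 6 together were found at 14 of the 324 members held by both, or 4.32%, beside 2.17% of such regions shared with the chimera and 1.48% of those shared with NeuroD2.

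By their median, MyoD values at the members lay near the middle of the MyoD list, but high values were fewer. The median was 10.1, at percentile 46.9, with quartiles of 7.23 and 15.8 and the whole range between 5.04 and 182. All regions with MyoD had quartiles of 6.94 and 20.3. Of the 990 members, 176 or 17.8% were in the highest 25% of the MyoD list. MyoD regions shared with a mutant and the chimera had a higher median of 18.8, at percentile 72.7, and those shared with a mutant and NeuroD2 had 9.97, at percentile 46.3. MyoD regions in no other list had a median of 8.79, at percentile 39.4. By MyoD rank the members thus stood a little above MyoD regions in no other list, level with those shared with NeuroD2 and far below those shared with the chimera. None of the members had an infinite value, which 59 sites of the series have.

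**Figure D2:**
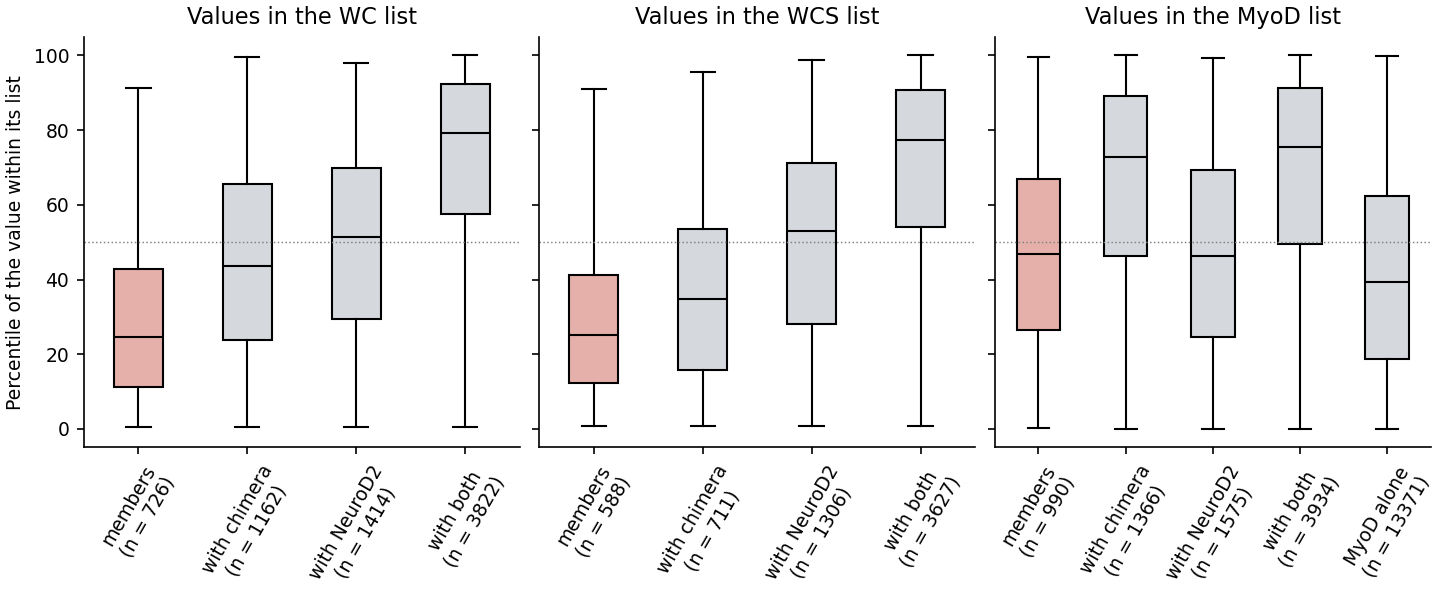
Boxes show the percentile of the deposited value within the WC, WCS and MyoD lists, with the median, the quartiles and whiskers to the lowest and highest value; the members are in red and the other classes of MyoD regions in grey, named by what they hold besides MyoD and a mutant. The members have the lowest medians in the WC and WCS panels, at 24.5 and 25.1, and a median of 46.9 in the MyoD panel.

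Among MyoD regions without the chimera and NeuroD2, the share that a mutant held was larger in bins of higher MyoD value. The share by bin was not computed for MyoD regions with the chimera or NeuroD2. All MyoD regions were divided into 5 bins by value. Members made up 5.00% of the regions without chimera and NeuroD2 in bin 1, the lowest, 6.91% in bin 2, 7.22% in bin 3, 8.33% in bin 4 and 8.97% in bin 5. The intervals were 4.35 to 5.73% in bin 1, 6.08 to 7.83% in bin 2 and 7.51 to 10.6% in bin 5, and those of neighbouring bins from bin 2 upwards overlap. They cover counting error only, and a trend with the MyoD value was not tested. For WC the share was 3.49% in bin 1 and 6.76% in bin 5, and for WCS 3.06% and 5.00%. Over the same bins the chimera's share of MyoD regions without NeuroD2 was 9.24%, 12.7%, 18.4%, 27.4% and 51.7%. Since the chimera held most regions of the highest bin, bin 5 supplied only 122 of the members, or 2.48% of its MyoD regions, against 231 or 4.91% in bin 2.

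**Figure D3:**
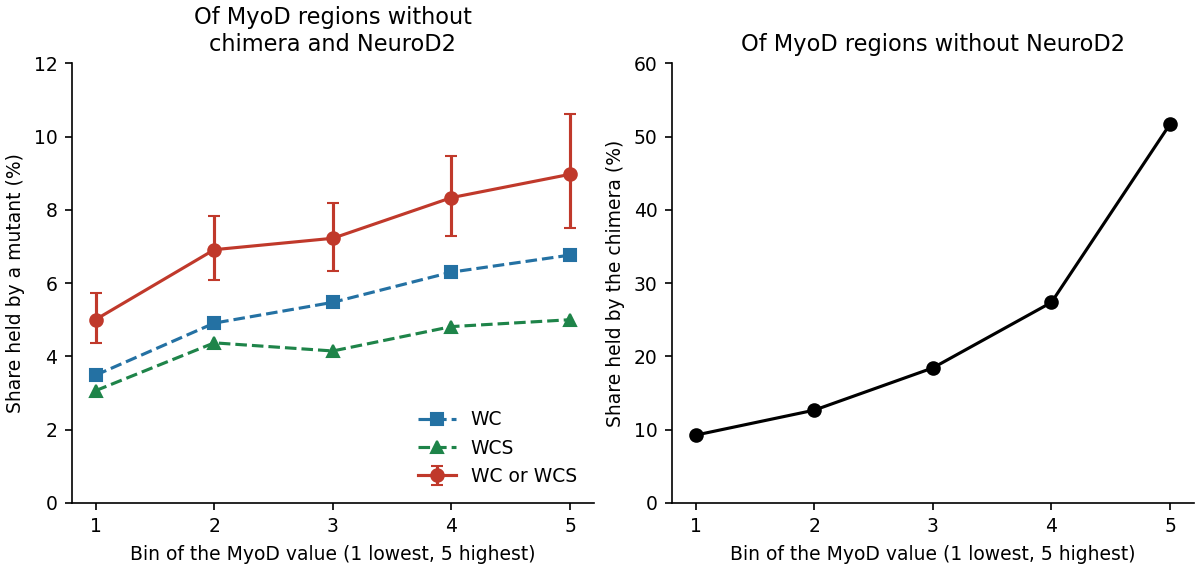
Points give shares by bin of the MyoD value, from bin 1, the lowest, to bin 5. Left, the percentage of MyoD regions without chimera and NeuroD2 that were held by WC, by WCS or by either (95% Clopper-Pearson intervals for either), which is 5.00% in bin 1 and 8.97% in bin 5; right, the percentage of MyoD regions without NeuroD2 that the chimera held, 9.24% and 51.7% in the same bins.

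Within the members, strength in the MyoD list did not go with strength in a mutant list. Across regions the Spearman coefficient was 0.02 between the MyoD and WC values (726 members) and 0.01 between the MyoD and WCS values (588 members). Between WC and WCS values it was 0.36 over the 324 members held by both. These are descriptions across regions of the same lists, and each list begins just above 5. Of the members, 422 lay in the lower 50% of the MyoD list and of the mutant lists by value, 369 in the upper 50% of the MyoD list only and 110 in the upper 50% of a mutant list only. In the upper 50% of both lay 89, or 8.99%, beside 31.1% of regions shared with a mutant and the chimera and 26.1% of those shared with a mutant and NeuroD2. Where both mutants were listed, the higher of their percentiles was used. Both were listed at 32.7% of members, 37.1% of regions shared with the chimera and 72.7% of those shared with NeuroD2. The classes thus differ in how often the higher percentile was taken.

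The members that led the MyoD list lay in the lower 50% of the mutant lists. Their WC percentiles were 48.6, 34.4, 33.2, 38.4 and 12.5 in the order given here, so 4 of the 5 were above the members' median of 24.5. The first lay at chr14:37845642-37846125 (mm9), with a WC value of 10.4 and a MyoD value of 182, at percentile 99.6 of the MyoD list. WCS was not listed there, and the nearest chimera site was 2135456 bp away. The second, at chr3:55030496-55031494, had a WC value of 8.05 and a MyoD value of 153, and its WC interval of 242 bp lay wholly within a MyoD interval of 999 bp. The remaining 3 of the first 5 all lay on chromosome 7. At chr7:128026163-128026605 the WC value was 7.92 and the MyoD value 97.0. At chr7:73038199-73038738 they were 8.62 and 96.6. At chr7:74518062-74518606 both mutants were listed, with 5.91 for WC and 5.75 for WCS against 94.8 for MyoD. Of these 5, 4 were therefore WC regions without WCS, as were 40.6% of all members and 54 of the 122 members in bin 5. Among members held by both mutants the MyoD values that followed were 91.6 at chr2:60548368-60548800, with 6.90 for WC and 6.04 for WCS, and 87.6 at chr8:11689899-11690356, with 5.90 for WC and 6.39 for WCS.

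The members that led the mutant lists did not lead the MyoD list. Their MyoD percentiles were 49.6, 33.4 and 57.6 for the WC leaders, in the order given here. For the WCS leaders they were 7.80, 55.1 and 29.7. These lie on both sides of the members' median of 46.9. At chr12:88301621-88302032 the WC value was 43.3, at percentile 91.2 of the WC list, while the WCS value was 5.70 and the MyoD value 10.7. A chimera site lay 200 bp and a NeuroD2 site 275 bp from the edge of that region. At chr2:165544735-165545228 the WC value was 41.2, the WCS value 6.04 and the MyoD value 7.94. At chr8:35504726-35505242 WC had 38.9 and MyoD 12.6, WCS was not listed, and a NeuroD2 site lay 585 bp away. WCS was near its lowest values or absent at all 3 of these WC leaders.

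The WCS leaders were members held by both mutants. At chr17:73403511-73404055 the WCS value was 38.6, at percentile 91.0 of the WCS list, the WC value 13.7 and the MyoD value 5.62, at percentile 7.80 of the MyoD list. At chr2:25653022-25653474 WCS had 30.2, WC 19.5 and MyoD 11.9. At chr5:14913696-14914057 WCS had 25.6, WC 34.1 and MyoD 7.58, and the surrounding 100 kb contained 63 WC, 60 WCS, 10 chimera, 67 NeuroD2 and 5 MyoD sites. That stretch is crowded with sites of the mutant and NeuroD2 lists, unlike the surroundings of the other WCS leaders, which held 1 to 6 sites of any list that was present. Of all members, 3 had a mutant value in the highest 10% of its list, and 32 in the highest 25%.

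Of the 176 members in the highest 25% of the MyoD list, 5 or 2.84% were also in the highest 25% of a mutant list. Over all 990 members that share was close to it, at 3.23%. The 5 are named here after their values were seen. At chr8:112766125-112766555 the values were 35.7 for WC, 14.9 for WCS and 51.1 for MyoD. At chr14:31333131-31333564 WC had 27.2 and MyoD 36.4, without WCS. At chr2:29763575-29764176 WC had 28.4, WCS 6.39 and MyoD 31.4. At all 5 it was WC that reached the highest 25%, and WCS did so at none. WC was listed at 726 members and WCS at 588. Which mutant reached the highest 25% was not counted over all 32 members with such a value. At chr1:158887468-158887848 WC had 21.8, WCS 9.50 and MyoD 28.6, and at chr7:142631612-142632146 WC had 21.4, WCS 5.86 and MyoD 23.1.

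**Figure D4:**
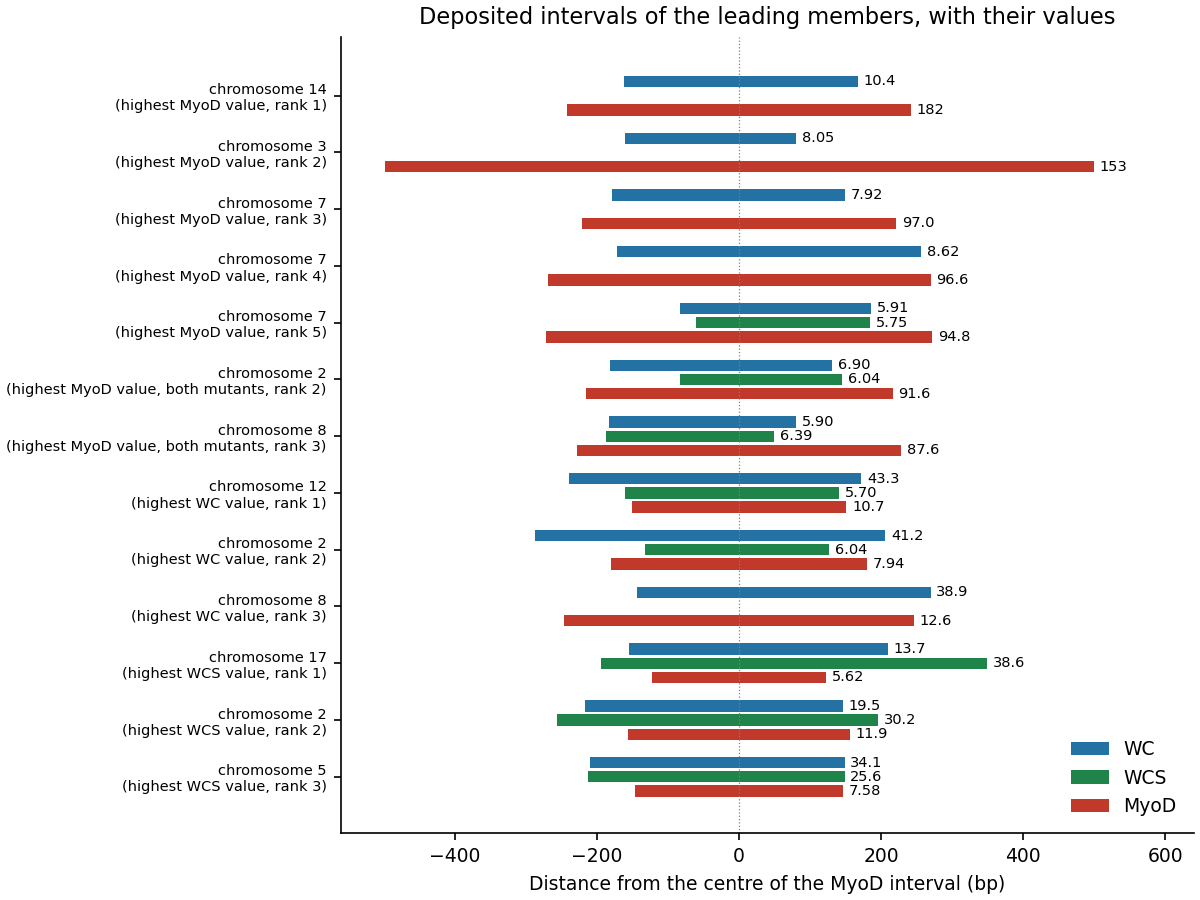
Bars are the deposited intervals of the WC, WCS and MyoD lists at the leading members, placed by their distance in bp from the centre of the MyoD interval, with the deposited value at the end of each bar. The mutant intervals cover the MyoD centre in every member drawn; the first MyoD leader has 10.4 for WC and 182 for MyoD, and the first WCS leader 38.6 for WCS and 5.62 for MyoD.

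Mutant and MyoD intervals covered the same stretch of DNA rather than touching at their edges. The centres lay a median of 40.5 bp apart for WC and MyoD (724 overlapping pairs) and 43.5 bp apart for WCS and MyoD (587 pairs). They were within 100 bp of each other in 84.5% and 83.3% of pairs. In the regions shared with NeuroD2 the medians were 42.0 and 42.5 bp, and in those shared with the chimera 37.8 and 45.0 bp, so the members were aligned much like regions with more lists. Where both mutants were listed, the WC and WCS centres lay a median of 23.0 bp apart over 323 overlapping pairs, and 311 of them were within 100 bp. The distance to the MyoD centre was not computed for these members alone. The shorter interval shared under 50% of its length in 12 WC pairs and 14 WCS pairs.

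Mutant intervals of the members were narrow. The median width was 292 bp for WC and 269 bp for WCS, beside 354 and 335 bp at regions shared with NeuroD2 and 332 and 286 bp at regions shared with the chimera. MyoD intervals of the members had a median of 352 bp, beside 337 bp at MyoD regions in no other list. The chimera's list has no site under 200 bp, and of the mutant intervals here 19 WC pairs and 50 WCS pairs, 2.62% and 8.52%, fell below that width. Of the members, 666 hold 2 intervals, 323 hold 3 and 1 holds 4.

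Some members sat at the edge of the rule. The smallest overlaps were 1 base, between WCS and MyoD at chr15:99771456-99772039, 10 bases at chr6:127977802-127978363 and 28 bases at chr2:37864364-37864810, both between WC and MyoD. Just outside the rule, 6 MyoD regions in no other list had a mutant site within 10 bp, the closest at chr10:38826217-38826637 with a gap of 2 bp, and 99 had one within 100 bp. The members nearest to a chimera site were chr13:64280268-64281105 at 37 bp, chr4:148680150-148680515 at 50 bp and chr10:77244980-77245360 at 58 bp, all WC regions without WCS. Those nearest to a NeuroD2 site were chr17:8539559-8540623 at 26 bp, chr19:47212177-47212543 at 44 bp and chr1:137583799-137584162 at 67 bp, all WCS regions without WC. Of all members, 40.6% were held by WC alone and 26.7% by WCS alone. Both sets of nearest regions are small and were picked by distance. How members within 1 kb of a chimera site, or of a NeuroD2 site, divide by mutant was not counted. A link between mutant and nearest list was not tested. The widest members were chr15:84042346-84043687 with 1342 bp, chr16:94919691-94920987 with 1297 bp and chr15:76291815-76293099 with 1285 bp, where MyoD values were 42.8, 27.2 and 21.5.

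Most members lay far from any chimera or NeuroD2 site. The nearest chimera site was a median of 25189 bp away and the nearest NeuroD2 site 15780 bp, beside 28727 bp and 16782 bp for MyoD regions in no other list. A chimera site within 1 kb was found for 60 members, 6.06%, and a NeuroD2 site within 1 kb for 84, 8.48%, beside 5.95% and 7.25% of MyoD regions in no other list. Regions shared by MyoD, a mutant and NeuroD2 lay closer to a further NeuroD2 site, at a median of 9422 bp. In their distance to NeuroD2 sites the members thus resembled MyoD regions in no other list. A further mutant site outside the region was somewhat nearer to members, at a median of 15728 bp for WC and 18267 bp for WCS, against 17847 and 21792 bp for MyoD regions in no other list. Other MyoD regions with a mutant had such sites nearer still. The medians were 13511 and 17399 bp for those shared with the chimera, and 11773 and 14084 bp for those shared with NeuroD2.

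**Figure D5:**
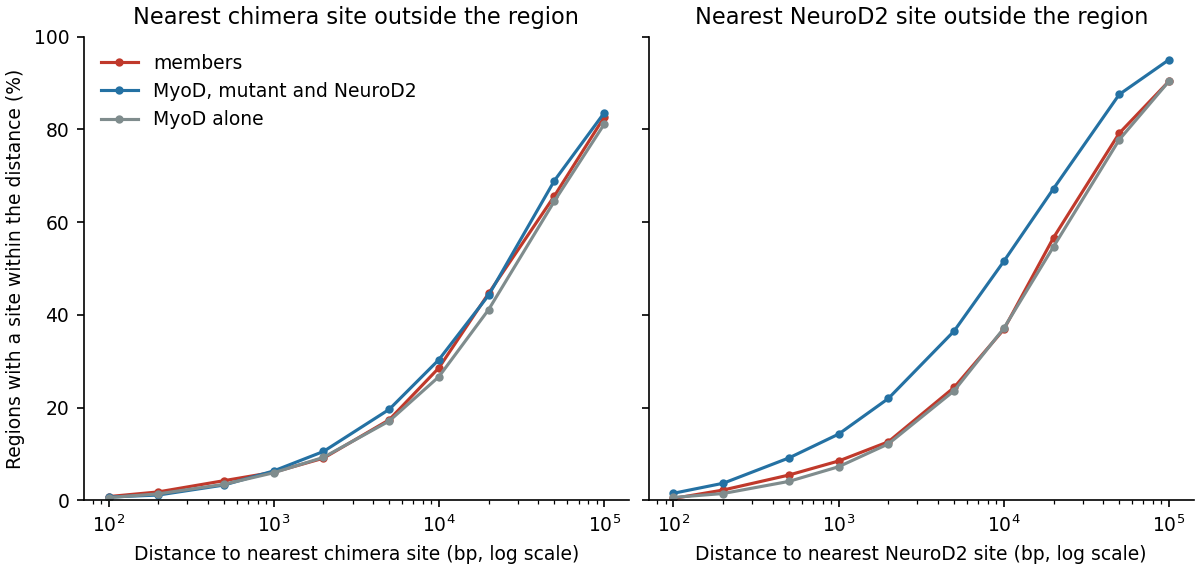
Lines give the percentage of regions with a chimera site (left) or NeuroD2 site (right) outside the region within the distance on the log-scaled x axis, for the members, for regions of MyoD, a mutant and NeuroD2, and for MyoD regions in no other list. The member line runs beside that of MyoD alone, with 36.9% and 37.1% within 10 kb of a NeuroD2 site, below the 51.6% of regions that hold NeuroD2.

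The members were spread thinly over the autosomes. They fell into 931 windows of 100 kb, of which 877 held 1 member, 49 held 2 and 5 held 3. The windows with 3 start at 8500001, 31100001 and 45700001 on chromosome 17, at 79600001 on chromosome 15 and at 117700001 on chromosome 11. Chromosome 17 thus supplied 3 of these 5 windows, which were picked as the fullest, and it held 58 or 5.86% of all members. As a share of the MyoD regions without chimera and NeuroD2, members were most frequent on chromosomes 16 and 17, at 8.33% each, followed by 8.31% on chromosome 6 and 8.29% on chromosome 9. They were least frequent on chromosome 13, with 19 of 511 regions or 3.72% (2.25 to 5.75%), and on chromosome 18, with 22 of 453 or 4.86% (3.07 to 7.26%). The interval of chromosome 13 lies below the 6.89% over all chromosomes, and those of all the other autosomes contain it. Chromosome 13 was picked as the lowest of all autosomes after their shares were seen. Whether its share differs from the rest was not tested.

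Membership depends on the threshold of the lists and, to a smaller extent, on how intervals are linked. With centres within 100 bases, 846 of the 1010 MyoD intervals in members belonged to the 990 regions. With sites within 500 bases joined, 910 of 1041 did. With the upper 50% of each list by value, 411 regions met the rule, and 89 of their 412 MyoD intervals belonged to the 990 regions. With every list shortened to the 14375 sites of the chimera's, 365 regions met it, and 154 of their 366 MyoD intervals were among the 990. In the shortened lists WCS alone held 150 of them, both mutants 131 and WC alone 84, so the order by mutant differed from that of the 990.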

How the data were processed

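ChIP-seq of transduced P19 cells comprised 12 libraries in 6 groups, and 5 lists of binding sites were analysed, 1 for each transduced group. Per the submitters' processing notes CASAVA 1.8.2, BWA 0.7.5 and the build mm9 were used. Peak caller, filters and pooling of libraries: not given in the sources used here. The value of each site, deposited by the authors, was taken to be a −log10 p-value because of its range, since no header names its unit, and was used to rank sites within a list. Percentiles are mid-ranks within the list. Start coordinates were raised by 1, so positions are 1-based. Intervals were merged and classified in Python 3.11.15 with pandas 2.3.3 and numpy 2.4.6, intervals on shares came from scipy 1.17.1, and plots from matplotlib 3.10.9. The merging was tested on simulated lists. A region with several intervals of a list took the highest value. Distances are between region edges. Named regions follow a rule: the 5 of highest MyoD value, the 3 of highest WC and of highest WCS value, the 3 of highest MyoD value held by both mutants, the 3 widest, the 3 with the smallest overlap, the 3 nearest to a chimera and to a NeuroD2 site, and the 5 windows of 100 kb with most members. The members, classes and rules were chosen with earlier results of these data known. No test was run, because each group has 1 list. E-boxes, nearest genes and sequences were not analysed here, since they need an mm9 genome and the gene tables used belong to GRCm38. Read depth is unknown, and intervals on shares cover counting error only.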

Additional observations from a re-analysis of the deposited data

How the results depend on the processing

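Results were recomputed under 6 alternatives listed at the start and 3 added after seeing the data. The number of members lay between 959 and 1010 with an overlap of 50% of the shorter interval, with centres within 100 bases, with sites within 500 bases joined, and with autosomes and the same width limits in every list. Its share of MyoD regions lay between 3.89% and 4.23% in these settings, although part of the members changed with the linking rule. With the upper 50% of each list it was 411 regions or 3.31%, and with lists of equal length 365 regions or 2.56%. Without members that had a chimera or NeuroD2 site within 1 kb, an added setting, 879 regions or 3.56% were left. Where MyoD and the mutants had to be in the upper 50% of their lists and the chimera and NeuroD2 lists were whole, also added, 89 regions or 0.718% were left. The last 2 settings only remove members by construction. The order by mutant differed in 2 settings: with equal lengths 131 were held by both, 84 by WC alone and 150 by WCS alone, and with the 89 regions 14 were held by both, 42 by WC alone and 33 by WCS alone. No paired analysis was possible because each group has 1 list and no test was run. Leaving out a library was not possible for the same reason.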

Other observations

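Members were not concentrated in windows crowded with sites. Of the 990 members, 63 or 6.36% lay in 100-kb windows where some list had at least 10 sites, beside 10.9% of the regions of MyoD, a mutant and NeuroD2 and 5.70% of MyoD regions in no other list. The 2 leading members by MyoD value lay in sparse windows: around the first, on chromosome 14, the window held 2 WC, 1 WCS, 0 chimera, 1 NeuroD2 and 4 MyoD sites, and around the second, on chromosome 3, it held 2 WC, 1 WCS, 0 chimera, 1 NeuroD2 and 1 MyoD site. The member with the smallest WC overlap, on chromosome 6, lay in a window with 18 WC, 11 WCS, 7 chimera, 18 NeuroD2 and 14 MyoD sites.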
